A study of Mus musculus with 6 samples.

Results

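RNA of 10 genes for plasma membrane amino acid transporters was examined in leptotene and zygotene (L/Z) spermatocytes, the male germ cells that enter meiotic prophase. The genes were Slc7a5, Slc3a2, Slc7a1, Slc7a3, Slc7a11, Slc1a4, Slc1a5, Slc38a1, Slc38a2 and Slc6a9, taken by symbol from a count table of 54532 genes. All 10 were in the table, 9 had at least 1 read, and 5 had enough reads to be tested. There were 6 libraries. The 3 control libraries came from littermate males labelled Wild type. The 3 Eef1g-cKO libraries came from males in which floxed exons of Eef1g, which encodes the gamma subunit of the elongation factor eEF1 that delivers aminoacyl-tRNA to ribosomes, were removed by Stra8-GFPCre. The strain was C57BL/6J, this Cre acts in male germ cells from the spermatogonial stage onward, and whether the controls carried the floxed allele or the Cre is not given in the sources used here. Cells of both genotypes were dissociated from testes at 12 days postpartum (dpp), stained with Hoechst and sorted by flow cytometry. Nothing in the sources used here says whether the libraries of a group came from separate animals, so the p-values below measure the spread between these libraries.

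Amino acids enter cells through several transporter families. Slc7a5 (LAT1) exchanges large neutral amino acids such as leucine and needs the glycoprotein heavy chain encoded by Slc3a2 (4F2hc, CD98) to reach the cell surface, and Slc7a11 (xCT), which exchanges cystine for glutamate, uses the same heavy chain. Slc7a1 (CAT1) and Slc7a3 (CAT3) carry the cationic amino acids arginine, lysine and ornithine, Slc38a1 and Slc38a2 (SNAT1 and SNAT2) take up small neutral amino acids with sodium, Slc1a4 and Slc1a5 (ASCT1 and ASCT2) exchange neutral amino acids such as serine and glutamine, and Slc6a9 (GlyT1) takes up glycine. When amino acids run short or translation is disturbed, the kinase GCN2 (Eif2ak4) can raise translation of the transcription factor ATF4, many of whose known targets are transporter and amino acid synthesis genes, while the amount of amino acid inside the cell is sensed by the Rag GTPase and mTORC1 system.

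The libraries held between 763133 and 2617648 reads assigned to genes, and the shallowest was Eef1g-cKO replicate 3. A count of 3 reads, used here as the detection floor, corresponded to 1.18 to 4.63 CPM (counts per 1000000 reads, with library sizes scaled by TMM). The cDNA was amplified without molecular identifiers, so floors and binomial intervals cover counting error only. RNA of the deleted gene was lower in Eef1g-cKO, from 220 ± 7.34 to 136 ± 16.0 CPM (SD, n = 3). Its log2 fold change was −0.68 with an SE of 0.20. By the quasi-likelihood test of edgeR, used for every adjusted p below unless another tool is named, the Benjamini-Hochberg adjusted p was 0.029. This call was lost in 7 of 17 alternative fits, including those without control replicate 1, 2 or 3 (adjusted p = 0.11, 0.121 and 0.0919) and without Eef1g-cKO replicate 1 (adjusted p = 0.0837), with the value between −0.86 and −0.54 throughout. A count over the whole gene includes exons outside the deletion and does not show how much of the deleted exons was left. Of 11 tested L/Z markers, 7 were higher and 1 was lower in Eef1g-cKO, and their summed level ran from 11681 to 13228 CPM in control and from 23395 to 31259 CPM in Eef1g-cKO, a ratio of means of 2.17. Summed markers of other cells ran the other way, from 1616 to 1836 CPM in control against 708 to 856 CPM in Eef1g-cKO for spermatogonia (6 of 7 tested genes lower), from 183 to 516 against 60.2 to 91.4 CPM for Sertoli cells (3 of 6 lower), and from 197 to 324 against 23.2 to 79.2 CPM for peritubular and stromal cells (4 of 6 lower). Among all tested genes, 7.8% were higher and 6.01% lower at an adjusted p under 0.05. Some lower markers had enough reads to be tested only through control, so they could only be seen to be lower. Examples were Cldn11 (21, 58 and 35 against 5, 1 and 0 reads) and Col3a1 (36, 52 and 52 against 4, 13 and 0 reads). Leydig cell markers summed to at most 10.7 CPM in any library, with Cyp17a1 and Hsd3b1 at 0 reads in all 6. Markers of pachytene and later germ cells summed to 25.2 to 46.5 against 4.63 to 18.4 CPM (1 of 2 lower). The lower gene was Piwil1 (34, 22 and 30 against 0, 1 and 0 reads), without which the sums overlapped, while Ldhc did not pass (adjusted p = 0.726). Markers of blood cells and macrophages summed to 7.84 to 96.2 against 3.23 to 94.2 CPM (0 of 1 called, also by DESeq2, limma-voom and at an unadjusted p under 0.05). The part of these differences in the results below was not tested, and in RNA from bulk cells a lower share of cells of a type and less RNA per cell cannot be told apart.

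Loss of eEF1G was accompanied by unequal differences among the transporters. Of the 5 tested genes, 2 were higher in Eef1g-cKO (Slc7a3 and Slc38a2), 1 was lower (Slc7a5) and 2 passed in neither direction (Slc7a1 and Slc3a2). Among all 8513 tested genes, 7.8% were higher and 6.01% lower at an adjusted p under 0.05. All 3 transporter calls also had a log2 fold change beyond 1 in size, as did 3.42% of all tested genes on the higher side and 4.96% on the lower side. The same 3 genes had CPM values that did not overlap between genotypes, which held for 34.5% of all tested genes. Over the 5 tested transporters the log2 fold changes had a median of 0.53, beside −0.05 over all tested genes. Slc7a3 had enough reads to be tested only through Eef1g-cKO, and Slc7a5 through control. Each came in through the group where it is high, so no direction for the transporters is read from these 2 calls.

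**Figure D1:**
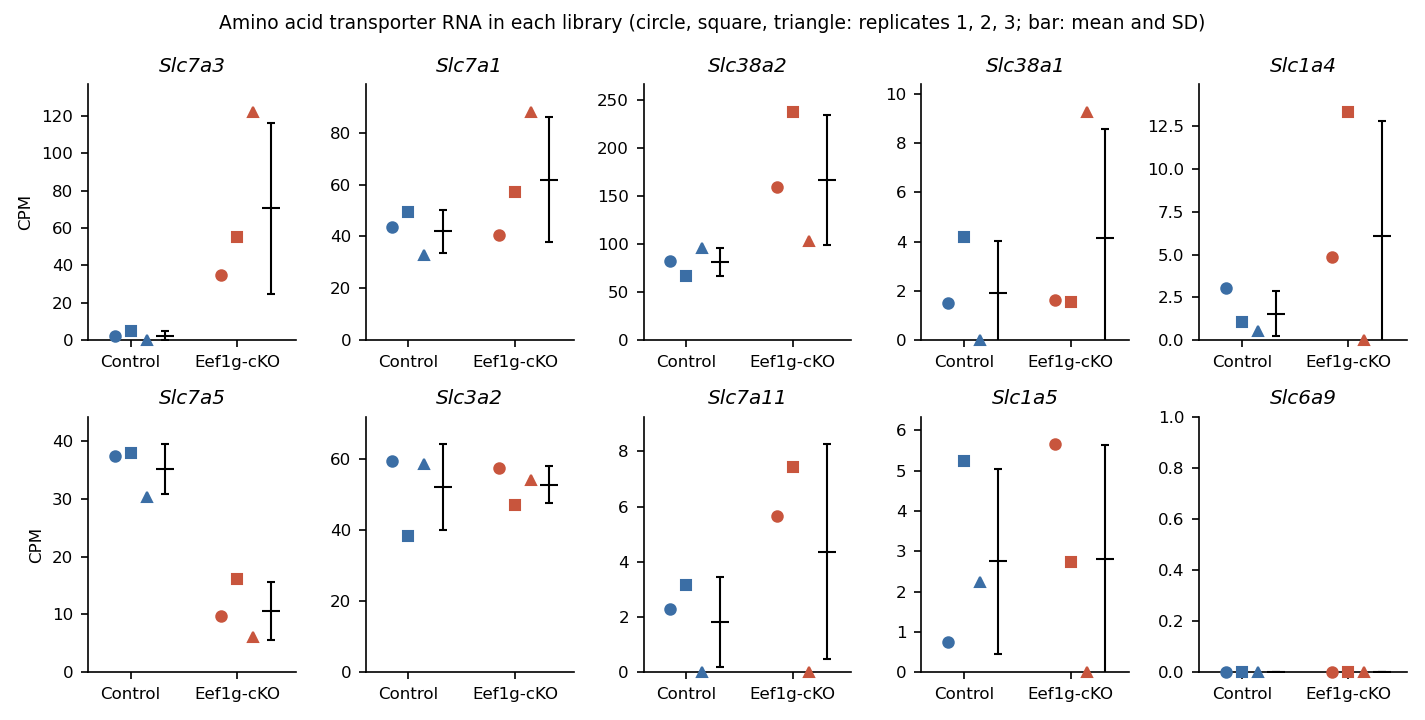
CPM of each of the 10 transporter genes in the 3 control (blue) and 3 Eef1g-cKO (red) libraries, with replicates 1, 2 and 3 as circle, square and triangle and the mean and SD as a black bar beside them. Each panel has its own linear axis from 0, where bars that would pass below 0 are cut off. Slc7a3 lay between 0 and 4.72 CPM in control and between 34.8 and 122 CPM in Eef1g-cKO, Slc7a5 was lower in each Eef1g-cKO library than in each control library, and Slc6a9 had no reads.

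The widest difference was in the cationic transporter Slc7a3. This gene lies on the minus strand of the X chromosome (chrX:101079210-101086020, mm10) and shares no exon with another annotated gene. It had 3, 9 and 0 reads in control replicates 1 to 3 and 43, 140 and 79 reads in Eef1g-cKO replicates 1 to 3, which gave 2.29, 4.72 and 0 CPM against 34.8, 54.9 and 122 CPM. Control libraries were thus at or near the floor, and every Eef1g-cKO library was well above it, with the highest value in the shallowest library. The means were 2.34 ± 2.36 and 70.6 ± 45.7 CPM (SD, n = 3), and the log2 fold change was 4.81 (SE 0.71, 95% interval 3.32 to 6.31), with an adjusted p of 0.000322. In this fit no other tested gene had a larger log2 fold change, whereas by adjusted p it was at rank 83 of 8513. With the same libraries and filter DESeq2 placed it at rank 2, with 1 library left out it was at rank 2 to 8, and with no low-count filter it was at rank 145 of 22130 genes. The size rests on few control reads: the pooled rate was 24.6 times higher in Eef1g-cKO, with a counting interval of 13.9 to 48.3 from 12 reads in control and 262 reads in Eef1g-cKO. Slc7a3 entered the test only through its Eef1g-cKO libraries, so a gene of this kind could be seen to differ in 1 direction only. Without control replicate 2, which held 9 of the 12 control reads, the log2 fold change was 6.00, and without control replicate 3 it was 4.21. It passed the test in all 16 alternative fits in which it could be tested, but these reuse the same libraries and are not separate support. With at least 10 reads required in every library, Slc7a3 was not tested.

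Slc7a1, the broadly expressed transporter for the same amino acids, showed no such difference. Its locus is on the minus strand of chromosome 5 (chr5:148327410-148399904). The values were 43.5, 49.3 and 33.0 CPM in control, and in Eef1g-cKO they were 40.4, 57.2 and 88.0 CPM. The groups overlapped, since Eef1g-cKO replicate 1 lay below the first 2 control libraries. Means were 42.0 ± 8.27 and 61.9 ± 24.1 CPM (SD, n = 3), and the log2 fold change was 0.53 (SE 0.36, 95% interval −0.21 to 1.28, adjusted p = 0.355). It did not pass in any of the 17 alternative fits, and the interval still includes an increase of up to 1.28 on the log2 scale.

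The make-up of the cationic pair therefore differed between the genotypes. Slc7a3 took 5.00% of the Slc7a1 and Slc7a3 reads in control replicate 1 (exact 95% binomial interval 1.04 to 13.9%), 8.74% in replicate 2 (4.07 to 15.9%) and 0% in replicate 3 (0 to 6.06%). In Eef1g-cKO replicates 1, 2 and 3 the shares were 46.2% (35.8 to 56.9%), 49.0% (43.0 to 54.9%) and 58.1% (49.3 to 66.5%). No Eef1g-cKO interval reached a control interval. Slc7a1 has the longer RNA, so per length the Slc7a3 share was 12.1 ± 11.4% in control and 75.9 ± 4.41% in Eef1g-cKO (SD, n = 3). The sum of both genes was 4.26 ± 1.34 and 24.0 ± 14.2 RPKM (CPM per kilobase of the gene length in the table). The pair leaves out the cationic transporter Slc7a2, which was at 1.77 ± 0.38 RPKM in control and 0.46 ± 0.27 RPKM in Eef1g-cKO. The shares therefore describe these 2 genes and not all cationic transporters. The pair was singled out after its values were seen, and these shares are given without a test.

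**Figure D2:**
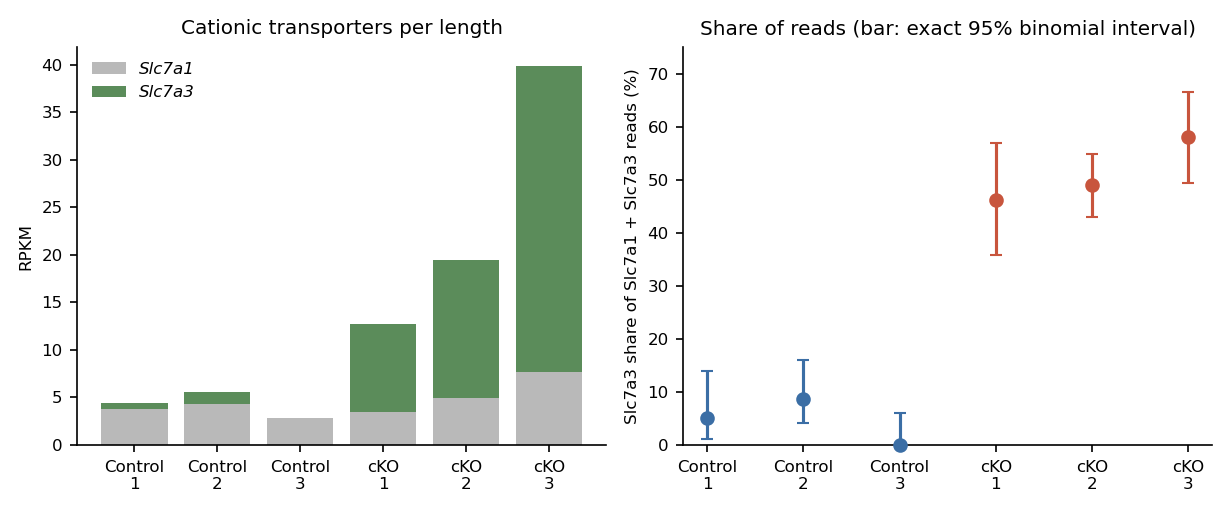
Left, RPKM of Slc7a1 (grey) and Slc7a3 (green) stacked for each of the 6 libraries. Right, the Slc7a3 share in percent of the reads of both genes, blue for control and red for Eef1g-cKO, with exact 95% binomial intervals that cover counting error only. The share was at most 8.74% in a control library and at least 46.2% in an Eef1g-cKO library.

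Slc38a2, the sodium-coupled carrier of small neutral amino acids such as alanine and glutamine, was the other transporter with more RNA. It is on the minus strand of chromosome 15 (chr15:96687392-96699730). The values were 82.4, 66.7 and 95.7 CPM in control, and in Eef1g-cKO they were 159, 238 and 103 CPM. Each Eef1g-cKO library was above each control library, although replicate 3 was close to the highest control. Means were 81.6 ± 14.5 and 167 ± 67.6 CPM (SD, n = 3), and the log2 fold change was 1.06 (SE 0.28, 95% interval 0.47 to 1.65, adjusted p = 0.0169), a 2.08-fold difference beside the ratio of 2.17 for the summed L/Z markers. The call was lost in 5 of 17 alternative fits. Without Eef1g-cKO replicate 2, the library with most reads, the log2 fold change was 0.72 (adjusted p = 0.119), and it was 1.08 (adjusted p = 0.066) without control replicate 1 and 0.93 (adjusted p = 0.0897) without control replicate 2. Its relative Slc38a1 had 2, 8 and 0 reads in control and 2, 4 and 6 reads in Eef1g-cKO and was too low to be tested.

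Slc7a5, the light chain of the leucine transporter, was lower in Eef1g-cKO. It lies on the minus strand of chromosome 8 (chr8:121881150-121907694). The values were 37.4, 37.8 and 30.2 CPM in control, and in Eef1g-cKO they were 9.70, 16.1 and 6.18 CPM. All Eef1g-cKO libraries lay below all control libraries, with the lowest value in replicate 3, where it rested on 4 reads. The gene passed the low-count filter through its control libraries, since only 2 of 3 Eef1g-cKO libraries reached the minimum. Means were 35.1 ± 4.26 and 10.7 ± 5.02 CPM (SD, n = 3). The log2 fold change was −1.63 (SE 0.50, 95% interval −2.67 to −0.58, adjusted p = 0.035), which corresponds to a level 3.09-fold lower. This call was close to the threshold and was lost in 8 of 16 alternative fits, including those without any 1 control library (adjusted p = 0.132, 0.137 and 0.0887 for replicates 1, 2 and 3) and without Eef1g-cKO replicate 1 (adjusted p = 0.094) or replicate 3 (adjusted p = 0.0567). In all 16 fits the value stayed negative, between −2.07 and −1.36. These fits share libraries, and Slc7a5 passed the filter through control, where it is high. The constant sign is therefore not separate support.

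For the heavy chain gene Slc3a2 no difference was found. It is on the minus strand of chromosome 19 (chr19:8706882-8723369), 243671 bases from Eef1g. Its values were 59.5, 38.3 and 58.8 CPM in control, and in Eef1g-cKO they were 57.4, 47.0 and 54.1 CPM. The Eef1g-cKO values all fell inside the control range. Means were 52.2 ± 12.0 and 52.8 ± 5.29 CPM (SD, n = 3), and the log2 fold change was 0.01 (SE 0.33, 95% interval −0.67 to 0.70, adjusted p = 0.98), and its sign changed in 5 of 17 alternative fits. The ratio of Slc3a2 to Slc7a5 per length was 1.67, 1.07 and 2.04 in control and 6.22, 3.08 and 9.19 in Eef1g-cKO. Against the sum of its 3 tested light chain partners, Slc7a5, Slc7a6 and Slc7a8, the ratio was 0.504 ± 0.105 in control and 0.608 ± 0.139 in Eef1g-cKO (SD, n = 3), a difference within the spread of the libraries (2-sided exact permutation p = 0.4, with 0.1 the smallest that 3 against 3 allows). Slc7a6 and Slc7a8, which carry cationic plus neutral and neutral amino acids with the same heavy chain, had log2 fold changes of 0.14 (SE 0.29, adjusted p = 0.806) and 0.36 (SE 0.46, adjusted p = 0.661).

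The remaining transporters were near the floor and had too few reads for the test. Slc7a11, the cystine carrier, had 3, 6 and 0 reads in control and 7, 19 and 0 in Eef1g-cKO. Slc1a4 had 4, 2 and 1 against 6, 34 and 0 reads, so 1 library held most of its Eef1g-cKO reads. Slc1a5 had 1, 10 and 4 against 7, 7 and 0 reads, and the glycine transporter Slc6a9 had no reads in any library, which at the floor allows up to 4.63 CPM in the shallowest. Pooled over the libraries of a group, the rate in Eef1g-cKO was 3.26 times that in control for Slc7a11 (counting interval 1.48 to 7.90) and 6.44 times for Slc1a4 (2.86 to 17.1), but Eef1g-cKO replicate 3 had no read of either gene and the groups overlapped. In a fit with no low-count filter, over 22130 genes, the log2 fold changes were 1.39 for Slc7a11 (adjusted p = 0.562), 2.13 for Slc1a4 (adjusted p = 0.46), 0.12 for Slc1a5 (adjusted p = 0.971) and 0.99 for Slc38a1 (adjusted p = 0.716). Of these 5 genes, exons of Slc6a9 overlap those of other annotated genes and the others share none.

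Levels were compared between genes per length, as RPKM. In control cells Slc3a2 was the highest at 14.8 ± 3.41 RPKM (SD, n = 3), followed by Slc7a5 at 9.48 ± 1.15 and Slc38a2 at 9.23 ± 1.65 RPKM, whose ranges over the libraries overlapped. Slc7a1 came next at 3.64 ± 0.72 RPKM, apart from its neighbours on both sides, and the 6 others were each at or below 0.66 RPKM on average. In Eef1g-cKO cells Slc38a2 (18.9 ± 7.65 RPKM), Slc7a3 (18.6 ± 12.1 RPKM) and Slc3a2 (13.3 to 16.3 RPKM) led with overlapping ranges. They were followed by Slc7a1 (5.37 ± 2.09 RPKM) and Slc7a5 (2.87 ± 1.35 RPKM), which overlapped each other. By mean, Slc7a3 was thus at rank 6 of the 10 genes in control and at rank 2 in Eef1g-cKO, and Slc7a5 at rank 2 and rank 5. In each case the range over the libraries overlapped that of at least 1 neighbouring gene, so these ranks are not resolved. Of the summed level of the 10 genes per length, Slc7a3 made up 1.63% on average in control and 28.4% in Eef1g-cKO, while Slc7a5 made up 24.4% and 4.56%. The sum itself was 39.1 ± 2.88 RPKM in control and 63.5 ± 9.37 RPKM in Eef1g-cKO (SD, n = 3), and the lowest Eef1g-cKO sum, 52.7 RPKM, lay above the highest control sum, 41.9 RPKM. This gap rested on Slc7a3, which ran from 0 to 1.25 RPKM over control libraries and from 9.19 to 32.2 RPKM over Eef1g-cKO libraries. Without Slc7a3 the sums overlapped. For the 38 further plasma membrane transporter genes treated below, the ratio of mean summed CPM, Eef1g-cKO over control, was 0.98.

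**Figure D3:**
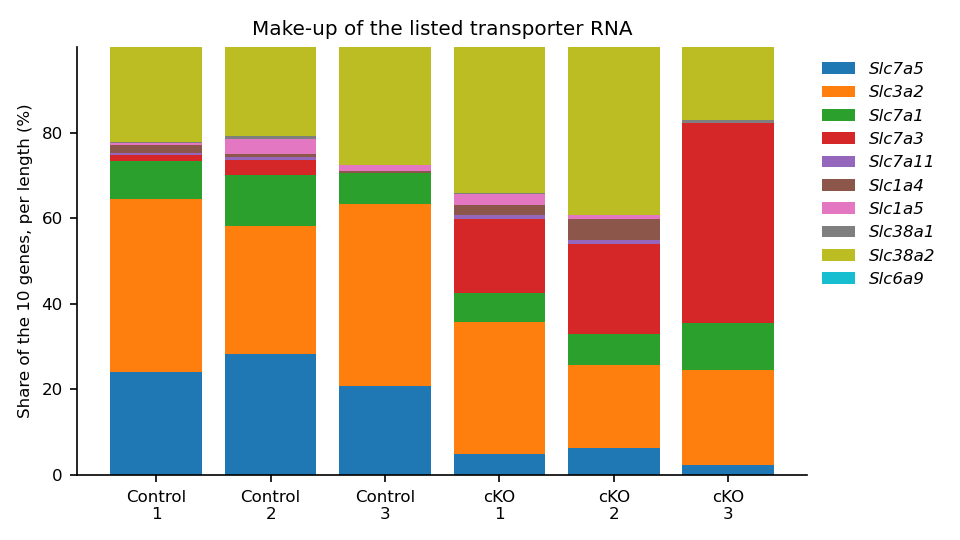
Share in percent of each transporter gene in the summed RPKM of the 10 genes, stacked to the whole for each of the 6 libraries. The red section, Slc7a3, was 0 to 3.46% in control and 17.4 to 46.7% in Eef1g-cKO, and the blue section, Slc7a5, was 20.8 to 28.2% and 2.41 to 6.31%.

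Of the other amino acid transporters of the cell surface, few had enough reads to be tested. Of 38 further plasma membrane transporter genes, 14 had no reads, 8 were tested, 0 were higher and 1 was lower in Eef1g-cKO, beside 7.8% and 6.01% of all tested genes. At an unadjusted p under 0.05 the edgeR test gave 0 higher and 3 lower. These 3, Slc6a6, Slc7a2 and Slc38a4, passed the low-count filter only through control, so each could only be seen to be lower. Many genes were under this looser limit: over both directions, an unadjusted p of 0.0503 stood at rank 2348 of 8513. DESeq2 and limma-voom also called 0 higher and 1 lower after adjustment. The lower gene, named here after its values were seen because its mean was under the 10 CPM set for naming, was Slc6a6, the taurine transporter. Its reads were 23, 37 and 30 in control and 1, 6 and 0 in Eef1g-cKO, so the log2 fold change was −3.61 (SE 0.85, adjusted p = 0.00819). Like Slc6a6, Sfxn1 below passed the low-count filter only through control, so it could be seen to differ in 1 direction only. The others did not pass, among them the cationic transporter Slc7a2, with 18, 28 and 36 against 8, 12 and 1 reads and a value of −1.83 on the log2 scale (SE 0.72, adjusted p = 0.10). The 8 tested genes had a median of −0.02 on this scale, beside −0.05 over all tested genes. Spermatogonial, Sertoli and stromal marker sums were also lower in Eef1g-cKO, as given above, and their part in the values of Slc6a6 and Slc7a5 was not tested. Among 26 transporters of lysosomes, mitochondria and other inner membranes found in the table, 7 were tested and 0 passed in the edgeR test, where 1 was lower at an unadjusted p under 0.05, or in DESeq2 and limma-voom. The nearest to passing was Sfxn1, a mitochondrial serine carrier, with 9, 19 and 18 against 3, 1 and 0 reads (log2 fold change −3.13, adjusted p = 0.066).

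**Figure D4:**
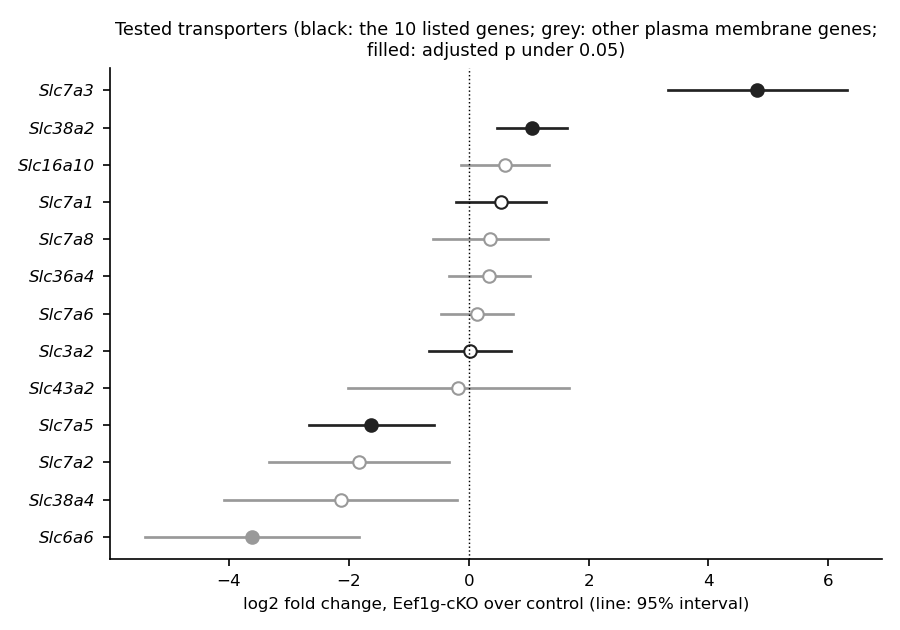
Log2 fold change (Eef1g-cKO over control) with its 95% interval for the 13 tested plasma membrane transporters, black for those of the 10 listed genes and grey for the others, filled where the adjusted p was under 0.05. Slc7a3 stood at 4.81 and Slc38a2 at 1.06 on the right, and Slc7a5 at −1.63 and Slc6a6 at −3.61 were the filled points on the left.

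Most of the tested genes that sense amino acids did not pass. Of 35 such genes found, 27 were tested, 4 were higher, 2 were lower and 21 did not pass, beside 7.8% higher and 6.01% lower among all tested genes, with a median log2 fold change of −0.12. Atf4, the transcription factor of the amino acid response, rose from 259 ± 33.5 to 534 ± 100 CPM (SD, n = 3, log2 fold change 1.04, SE 0.18, adjusted p = 0.000904), while Eif2ak4, the GCN2 kinase upstream of it, was at 16.9 ± 7.75 and 16.9 ± 3.44 CPM. Fnip1, a partner of folliculin at the lysosome, rose by a log2 fold change of 1.14 (adjusted p = 0.000352), the Rag GTPase Rragc by 0.94 (adjusted p = 0.0123) and the leucine sensor family member Sesn3 by 0.83 (adjusted p = 0.0371). Rragd, another Rag GTPase, went from 49, 91 and 52 reads to 11, 11 and 0 reads (log2 fold change −2.96, adjusted p = 0.00493), and Lamtor2, a subunit of the Ragulator scaffold, from 39, 70 and 62 to 5, 30 and 0 reads (−2.40, adjusted p = 0.0193). Both of these passed the low-count filter only through control, where they are high, so no direction for the group is read from them.

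Few genes that use the transported amino acids passed. Among 14 tested genes of glutathione and glutamine metabolism, 1 was higher and 2 were lower, with a median log2 fold change of −0.42, and among 12 tested genes of serine and glycine use 1 was higher and 1 lower, with a median of −0.31. The background was 7.8% higher and 6.01% lower, so neither count is a result about its list. Gsr, which reduces oxidised glutathione, fell from 214 ± 42.0 to 43.6 ± 16.0 CPM (SD, n = 3, log2 fold change −2.25, adjusted p = 4.2e-05), and Nfe2l2, the transcription factor NRF2 known to drive Slc7a11, fell from 76.3 ± 20.4 to 27.8 ± 2.58 CPM (−1.46, adjusted p = 0.00781). Chac1, a glutathione-degrading enzyme and known ATF4 target, had no reads in control and 4, 14 and 4 reads in Eef1g-cKO and was too low to be tested. Of the serine and glycine genes, Dld, a subunit of the glycine cleavage system, rose (log2 fold change 0.79, adjusted p = 0.00611) and Shmt1, the cytosolic serine hydroxymethyltransferase, fell (−1.19, adjusted p = 0.0112). Psat1 and Phgdh, which make serine, had values of 0.71 (adjusted p = 0.222) and −0.88 (adjusted p = 0.486) that did not pass.

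Promoter windows were matched for 6 of the 10 genes, and 3 are shown, those of the genes with reads whose window held a searched motif. Each run gives the 250 bases before a RefSeq transcription start in GRCm38.p6, 5′ to 3′ on the strand of the gene, with motif matches in capitals. Searched on both strands were the ATF4-C/EBP element TGATGNAA, present in 3.45% of 32851 RefSeq promoter windows of this length, the antioxidant response element TGACNNNGC, present in 10.2%, and the E-box CACGTG, present in 6.02%.
Slc38a2 (chr15:96699729-96699978, minus strand): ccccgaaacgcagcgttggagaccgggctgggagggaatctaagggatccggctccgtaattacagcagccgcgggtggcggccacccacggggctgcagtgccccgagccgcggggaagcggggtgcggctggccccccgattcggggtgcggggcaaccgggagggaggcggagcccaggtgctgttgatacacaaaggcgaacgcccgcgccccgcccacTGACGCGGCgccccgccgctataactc
Slc7a1 (chr5:148399905-148400154, minus strand): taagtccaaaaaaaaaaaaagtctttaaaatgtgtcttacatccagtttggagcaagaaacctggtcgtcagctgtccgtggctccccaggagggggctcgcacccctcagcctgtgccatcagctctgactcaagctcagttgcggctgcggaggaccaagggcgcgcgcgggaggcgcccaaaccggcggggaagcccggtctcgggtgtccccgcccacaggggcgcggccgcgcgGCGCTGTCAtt
Slc7a11 (chr3:50443614-50443863, minus strand): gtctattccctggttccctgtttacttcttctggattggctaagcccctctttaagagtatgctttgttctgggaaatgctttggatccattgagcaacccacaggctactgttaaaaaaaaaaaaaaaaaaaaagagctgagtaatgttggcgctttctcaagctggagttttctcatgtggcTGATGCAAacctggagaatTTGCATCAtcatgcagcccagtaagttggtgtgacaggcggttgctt
The window of Slc38a2 held 1 antioxidant response element match, 27 to 19 bases before the start, and that of Slc7a1 held 1 on the opposite strand, 11 to 3 bases before it, while the window of the other Slc7a1 start, not shown, held none. Of these 6 genes only Slc7a11, a gene near the detection floor, had the ATF4-C/EBP letters, once on each strand, 66 to 59 and 47 to 40 bases before the start. The Slc3a2 and Slc1a4 windows held none of the 3 motifs, and of the 3 Slc6a9 windows 2 held an antioxidant response element match. Exons, introns and more distant sequence were not searched, so a window without a match does not show that its gene lacks the element. The Slc3a2 window lies before a start 9472 bases inside the gene as annotated in the count data. A match here is a description of letters.

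The genes whose pattern over the 6 libraries was most like that of a transporter were found by the root mean square difference of gene-centred log2 CPM. Nearest to Slc7a3 was Hist1h1e, a linker histone gene, at 0.47 (log2 fold change 4.04, adjusted p = 0.000804). Next were Amy1 at 1.05 (3.13, adjusted p = 0.0509) and Adamts6 at 1.10 (2.79, adjusted p = 0.0137). Nearest to Slc7a5 were Polr2e, a subunit of RNA polymerase II, at 0.10 (−1.55, adjusted p = 0.00583), Rpl23a, a ribosomal protein gene, at 0.17 (−1.46, adjusted p = 0.125) and Efcab11 at 0.19 (−1.72, adjusted p = 0.0143). The distances were smaller for Slc7a5 than for Slc7a3. In control, Hist1h1e, Amy1 and Adamts6 had means of 3.51, 1.92 and 3.18 CPM, near the detection floor. All 6 genes were picked for likeness to a transporter itself chosen by its adjusted p. Their fold changes and adjusted p therefore follow from the selection and are not separate results.

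**Figure D5:**
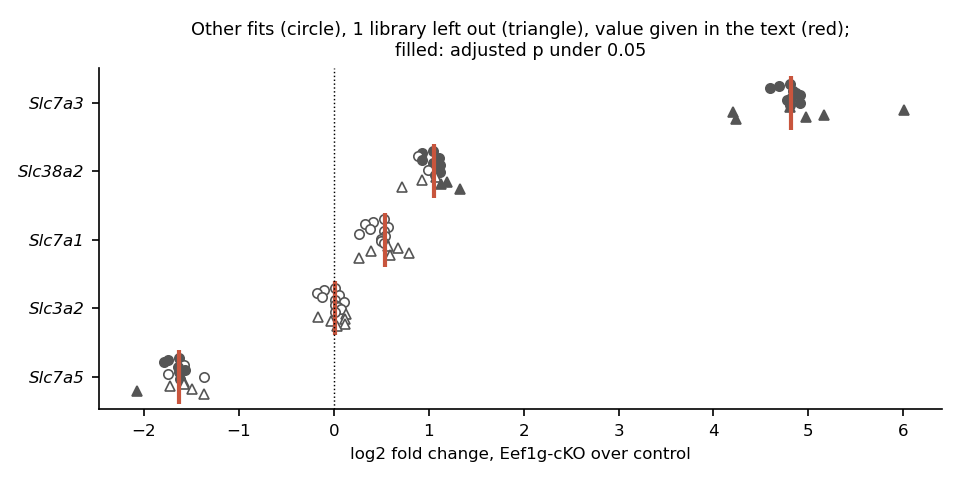
Log2 fold change (Eef1g-cKO over control) of the 5 tested transporters in the fit used in the text (red bar), in other fits (circles) and with 1 library left out (triangles), filled where the adjusted p was under 0.05. Slc7a3 ran from 4.21 to 6.00 and was filled throughout, Slc38a2 ran from 0.72 to 1.33, Slc7a1 from 0.27 to 0.79, Slc3a2 lay on both sides of 0 from −0.18 to 0.13, and Slc7a5 ran from −2.07 to −1.36.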

How the data were processed

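RNA-seq of sorted mouse L/Z spermatocytes was analysed in 3 control and 3 Eef1g-cKO libraries. Polyadenylated RNA was amplified as full-length cDNA and sequenced in pairs. Per the labels, the authors used fastp, HISAT2 and featureCounts with mm10, and they deposited whole-number read counts for each Ensembl gene and library, with no normalisation. The strand setting is not given in the sources used here, so reads of antisense genes could not be told apart, and reads of near-identical copies are uncertain. DESeq2 is also named in the labels.

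From the deposited counts, 8513 of 54532 genes were kept by filterByExpr (minimum count 10, minimum total 15). They were fitted with the robust quasi-likelihood test of edgeR 4.0.16 (R 4.3.3, TMM scaling, genotype as the only term) and adjusted by Benjamini-Hochberg over all of them, with 0.05 as the threshold. The standard error of a log2 fold change was its size divided by the square root of F. CPM used TMM-scaled totals and RPKM the gene lengths in the table, which for the 10 genes equalled their merged exons in GENCODE. Groups and replicate numbers came from the sample titles. DESeq2 1.42.0, limma-voom (limma 3.58.1) with sample quality weights and other scalings, filters and subsets were alternatives, and the procedure was tested on simulated data. Every 2 libraries differed by more than counting noise (chi-square per degree of freedom at least 6.37). Promoters were from RefSeq GRCm38.p6.

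The transporter genes and lists were chosen with earlier results of these data known. Genes named were the 10 transporters, Eef1g, list members that passed with a mean of at least 10 CPM, and the 3 genes nearest in pattern to the leading transporter in each direction. Others were named after their values were seen. A list member that met this rule is not reported here.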

Additional observations from a re-analysis of the deposited data

How the results depend on the processing

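The 2 higher transporters became 1 under scaling by library totals alone (Slc7a3), with at least 10 reads required in every library (Slc38a2, since Slc7a3 was then not tested) and with a replicate block (Slc7a3), and ranged from 1 to 2 with 1 library left out. The 1 lower transporter became 0 with no low-count filter, with at least 10 reads in every library (Slc7a5 was not tested), with a replicate block and with libraries thinned to the smallest total, and ranged from 0 to 1 with 1 library left out. Under the replicate block the log2 fold change was 0.99 for Slc38a2 (adjusted p = 0.0521) and −1.75 for Slc7a5 (adjusted p = 0.0543). Deviations from the group mean did not go together in same-numbered libraries (correlations of −0.04, 0.02 and −0.05 over 8513 genes). With so few libraries this cannot show whether they were collected in pairs. Slc7a5 also missed the threshold with no filter (−1.58, adjusted p = 0.0684) and after thinning (−1.36, adjusted p = 0.131), and Slc38a2 with library totals alone (0.88, adjusted p = 0.0743). The count of other lower plasma membrane transporters was 1, became 0 with at least 10 reads in every library and ranged from 0 to 1 with 1 library left out, 0 being the count without control replicate 2. Slc3a2 changed sign under upper-quartile scaling (−0.11), library totals alone (−0.18) and at least 10 reads in every library (−0.13), and ranged from −0.16 to 0.13 with 1 library left out, negative without control replicate 2 (−0.16) or Eef1g-cKO replicate 1 (−0.02). Slc7a1 in 17 fits and Slc7a3 in 16 kept their direction and their side of the threshold. Except where a gene was no longer tested, the cause was not tested.

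Over all genes, 664 were higher and 512 lower, against 463 and 639 with upper-quartile scaling and 333 and 643 with library totals alone, and the median on the log2 scale over all genes went from −0.05 to −0.17 and −0.24. With 1 library left out, 374 to 834 were higher and 238 to 668 lower. At the present depth, 5 of the 10 transporters were too low to test, and thinned libraries gave 453 higher and 343 lower. The alternative without rRNA and mitochondrial genes was added after the data were seen and changed no transporter call.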

Other observations

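Slc7a3 lies among other X-linked genes that were tested. The nearest tested gene at lower coordinates, Tex11, a meiosis gene, was higher by 0.91 on the log2 scale (adjusted p = 0.00454), Dlg3 beyond it had 1.97 (adjusted p = 0.0187), and Kif4 next to that had −0.77 (adjusted p = 0.222). On the other side Snx12 had 0.07 (adjusted p = 0.936), Zmym3 −0.45 (adjusted p = 0.472) and Nono 0.17 (adjusted p = 0.778). Of 393 tested X-linked genes 53 were higher (13.5%, beside 7.8% of all tested genes) and 21 lower (beside 6.01%), a difference that was not tested, and Slc7a3 had the largest log2 fold change among them in the edgeR test. These neighbours were named after their values were seen. Between Slc3a2 and Eef1g on chromosome 19 lie 39 annotated genes, of which 12 were tested, 1 was higher and 1 lower, with a median log2 fold change of −0.03.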
